A study of Mus musculus with 6 samples.

Results

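Malat1, Neat1, Gas5, Snhg1, Snhg8, Snhg12, Meg3 and Kcnq1ot1 are long noncoding RNA genes that act as nuclear RNAs or carry small nucleolar RNAs (snoRNAs) in their introns. They were chosen by name, and all 8 had a row among the 46983 genes of the count table. All 8 also passed the filter on low counts that left 16441 genes for testing. RNA came from whole livers of untreated, chow-fed mice on a C57BL/6 background at 12 weeks of age. In the AEG-1DHEP group AEG-1, the product of Mtdh, was deleted in hepatocytes only, so the other liver cells kept the gene. The control group (AEG-1fl/fl) carried the conditional Mtdh allele without deletion and is named WT in the sample titles. The driver of the deletion is not given in the sources used here.

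Each group had 3 library columns. Control replicate 2 repeated control replicate 1 value for value over the whole table, a difference below the sampling noise, and the pair was counted as 1 sample, called control replicate 1. That left 3 knockout and 2 control libraries. Library totals ran from 29557477 to 33685670 counts in the knockout group and from 30819997 to 30965664 in the control group. Mtdh had 89, 74 and 76 counts in the knockout libraries against 1529 and 1612 in the control libraries, so each library went with its label. All 10 hepatocyte markers listed were detected in every library, with a summed level of 91847 to 103843 CPM in knockout and 83264 to 113123 CPM in control livers (CPM is the count as a rate of the library total, with TMM scaling, edgeR's trimmed mean method). In knockout replicate 1 the muscle gene Ckm had 153 counts, against 0 in each of the other libraries. In control replicate 1 the RNase P RNA gene Rpph1, whose transcript is not polyadenylated, had 97 counts, against 4 to 6 in the knockout libraries and 5 in control replicate 3. The part of either in the values below was not tested. Over all genes, knockout replicate 3 differed less from control replicate 3 (chi-square over its degrees of freedom 49.4) than from knockout replicates 1 and 2 (86.3 and 106). Knockout replicates 1 and 2 were closest to each other (44.5). Both differed less from control replicate 1 (84.5 and 91.1) than from knockout replicate 3. The 2 controls differed most from each other (227).

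Malat1 RNA stays in nuclear speckles, bodies rich in splicing factors, while the long form of Neat1 is the scaffold of paraspeckles. Neither long form ends in an ordinary poly(A) tail: RNase P cuts the transcript, and the new end is held in a triple helix of U-rich stretches and an A-rich tract. Gas5 and the Snhg genes host snoRNAs, which guide modification of ribosomal RNA, and their spliced transcripts are known to be translated a little and destroyed by nonsense-mediated decay. Many hosts begin with a 5′ terminal oligopyrimidine tract (TOP), as ribosomal protein genes do. Meg3 is expressed from the maternal copy of the imprinted Dlk1-Dio3 domain. Kcnq1ot1 runs antisense through Kcnq1 from the paternal copy and silences neighbouring genes on it.

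The 3′ ends of Malat1 and Neat1 are shown because they set these RNAs apart from messenger RNAs, which end in a poly(A) tail. The kit named in the labels is usually used with poly(A) selection, and whether that step was used is not given in the sources used here. Sequences are from GENCODE vM21 transcripts on GRCm38, minus strand, chr19:5795972-5796072 for Malat1 and chr19:5824708-5824803 for Neat1. Capitals mark, in Malat1, 2 U-rich stretches and the A-rich tract and, in Neat1, 1 of its U-rich stretches and the A-rich tract. The bases tttctttt near the start of the Neat1 sequence form another U-rich stretch, which was left unmarked.
Malat1: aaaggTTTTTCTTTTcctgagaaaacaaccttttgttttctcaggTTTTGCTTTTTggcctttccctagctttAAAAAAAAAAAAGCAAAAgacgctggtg
Neat1: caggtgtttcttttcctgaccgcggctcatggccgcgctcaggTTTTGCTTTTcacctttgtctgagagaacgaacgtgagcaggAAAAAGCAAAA
Both hold a U-rich stretch with a G and a C in its middle and, after it, an A-rich tract that ends in GCAAAA. In Malat1 the tract ends at base 6691 of the 6983 annotated bases, with 292 annotated bases after it. In Neat1 the annotated long form of 20771 bases ends with the tract, and a short form of 3004 bases shares its row. The counts cannot separate the long and short forms.

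Start sites are shown because runs of at least 7 pyrimidines were found near the starts of 3 of the 4 snoRNA hosts. RefSeq start sites on GRCm38.p6 were found for 7 of the 8 genes. The windows below run from 30 bases before the start to 30 from it, and capitals mark runs of at least 7 pyrimidines (C or T) on the gene's strand between 10 bases before the start and 20 from it. They lie at chr1:161035136-161035195 on the plus strand (the second of 2 Gas5 starts), chr19:8723457-8723516 plus for Snhg1, chr3:123508307-123508366 minus for Snhg8, chr4:132308648-132308707 plus for Snhg12 and chr19:5802643-5802702 minus for Malat1.
Gas5: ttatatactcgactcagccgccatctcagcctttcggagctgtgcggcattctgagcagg
Snhg1: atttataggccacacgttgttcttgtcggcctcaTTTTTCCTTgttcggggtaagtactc
Snhg8: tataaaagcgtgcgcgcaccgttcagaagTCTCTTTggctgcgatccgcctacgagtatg
Snhg12: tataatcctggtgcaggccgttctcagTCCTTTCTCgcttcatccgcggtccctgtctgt
Malat1: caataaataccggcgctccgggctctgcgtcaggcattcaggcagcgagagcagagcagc
Snhg1 and Snhg12 had a run of 9 and Snhg8 a run of 7, while the longest run at the Gas5 start shown was 6. The Gas5 run, below the set length, spans the annotated start, as do those of Snhg8 and Snhg12. That of Snhg1 lies after its start. Of the 3 other members with an entry (Malat1, Meg3 and Kcnq1ot1), 0 held a run of at least 7. Among all 27025 genes with a start site 20.5% held one. Of 17 listed translation genes with a start site, 10 held one, as did 6 of 15 other snoRNA hosts. So did 3 of 7 hepatocyte markers, 3 of 5 cholangiocyte markers and 1 of 18 paraspeckle protein genes. A run could lie anywhere in the searched stretch and need not begin at the first base, as a TOP does. It is a description of the letters and not a test of TOP control.

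The rows of the 4 hosts contain 24 annotated snoRNA rows on the same strand: 10 in Gas5, 8 in Snhg1, 5 in Snhg12 and 1 in Snhg8. All 24 were listed at 0 in every library, so the values below follow the host transcripts and say nothing of the snoRNAs. The counting of reads that meet both a host exon and a snoRNA is not given in the sources used here. One snoRNA each of Gas5, Snhg12 and Snhg8 is shown, since these RNAs are what the hosts are known for. Snord47 lies at chr1:161038082-161038158 plus and Snord99 at chr4:132310691-132310764 plus, with the C box and D box in capitals. Snora24 lies at chr3:123507937-123508066 minus, with the ACA box in capitals.
Snord47: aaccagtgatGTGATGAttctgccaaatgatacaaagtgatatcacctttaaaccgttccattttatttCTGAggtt
Snord99: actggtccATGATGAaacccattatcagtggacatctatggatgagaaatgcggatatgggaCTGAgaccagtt
Snora24: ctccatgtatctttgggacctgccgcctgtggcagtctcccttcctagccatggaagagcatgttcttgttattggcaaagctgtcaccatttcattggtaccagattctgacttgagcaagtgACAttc

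Of these 8 RNAs, some were abundant in liver and others were not. By mean CPM they ranked 1 (Malat1), 2 (Neat1), 15 (Gas5), 59 (Snhg1), 66 (Snhg8), 102 (Snhg12), 185 (Meg3) and 210 (Kcnq1ot1) among 952 tested genes whose GENCODE vM21 type was taken as long noncoding. The processed transcript type was among these, and it holds genes named for proteins, such as C4a (141 CPM) and Cct6a (111 CPM). Both stood above Gas5, so the ranks are those of this mixed set. Together the 8 RNAs took 0.0801%, 0.0989% and 0.0800% of the knockout libraries and 0.118% and 0.0792% of the control libraries. That was 17.8% to 21.7% of all counts of genes of these types per library, and Malat1 and Neat1 made up 89.8% to 92.8% of the counts of the 8.

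Compared per length of the whole row, Malat1 was highest, with 63.2, 49.8 and 82.1 CPM per kb of exon in the knockout libraries and 73.2 and 72.2 in the control libraries. Neat1 followed with 12.2, 26.3 and 8.81 CPM per kb in knockout and 26.0 and 12.3 in control livers. The Neat1 row was divided by the 20771 bases of the long form, and reads of the 3004-base short form cannot be separated. How Neat1 stands against Malat1 per length of transcript is therefore not known. Gas5 had 11.7 to 13.0 CPM per kb in knockout and 11.1 to 13.5 in control livers. In knockout livers Neat1, Gas5 and Snhg8 overlapped, and their order there is not fixed by these libraries. Neat1 and Gas5 overlapped in control livers too, so their order is not fixed there either. Snhg8 stood at 10.6 to 13.2 CPM per kb in knockout and 9.49 to 10.5 in control livers. Snhg12 had 3.40 to 4.17 CPM per kb in knockout and 3.73 to 4.21 in control livers. Snhg1 had 2.61 to 3.88 in knockout and 2.99 to 4.78 in control livers, and so overlapped Snhg12 in both groups. Meg3 (0.0767 to 0.304 in knockout, 0.189 to 0.201 in control livers) and Kcnq1ot1 (0.0250 to 0.0374 in knockout, 0.0331 to 0.0357 in control livers) lay far below the others. Only 7.52% of the 16441 tested genes had a mean below that of Meg3 per length and 0.182% below that of Kcnq1ot1, so the word abundant does not describe these 2 genes. Lengths are the summed exons of each row. The Gas5 row holds 3760 bases because 20 of its 25 annotated transcripts retain introns, while the other 5 are 346 to 665 bases long. How many of the row's reads came from retained introns is not known, so the level of spliced Gas5 per length cannot be read from it. For Snhg1 the row holds 2969 bases against 408 to 709 in transcripts without a retained intron.

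**Figure D1:**
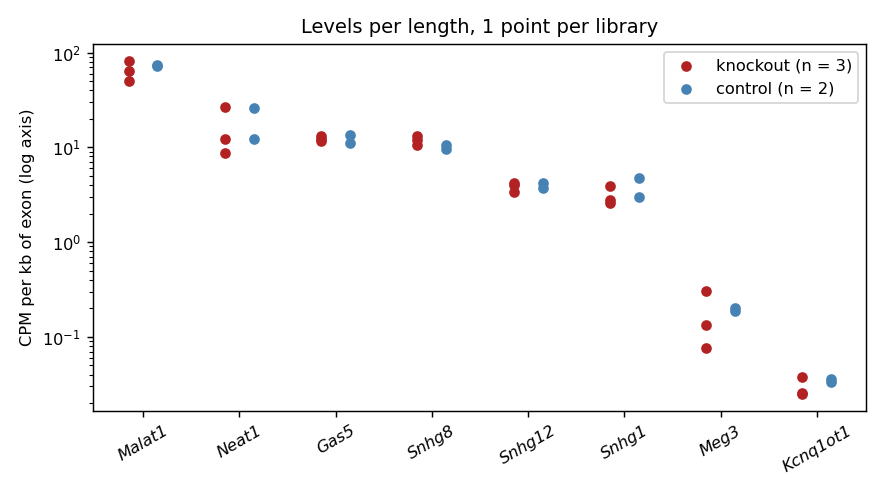
CPM per kb of exon (log axis) of each of the 8 RNAs, with 3 knockout points left of 2 control points. Malat1 is at 49.8 to 82.1 in every library, the middle 5 genes are between 2.61 and 26.3, and Meg3 and Kcnq1ot1 reach at most 0.304.

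Loss of AEG-1 from hepatocytes left none of the 8 RNAs past the test. By edgeR's quasi-likelihood test 0 of 8 were higher and 0 of 8 lower at an adjusted p of 0.05, in a comparison where 0.00608% of all tested genes were called (Mtdh alone). An unadjusted p under 0.05 was reached by 0 of 8 and by 3.43% of all tested genes, and DESeq2 called 0 of 8, where it called 0.116% of genes. The log2 fold change of knockout over control was above 0 for 2 and below 0 for 6 of them, with a median of -0.17, beside 0.01 over all tested genes. The adjusted p was 1.00 for each. How large a difference these libraries leave possible varied between the genes, and is given for each as a 95% interval. In whole liver, fewer cells of a type and less RNA per cell cannot be told apart. The p-values set the difference between the groups against the spread within groups of these 5 libraries, estimated partly from the other genes.

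**Figure D2:**
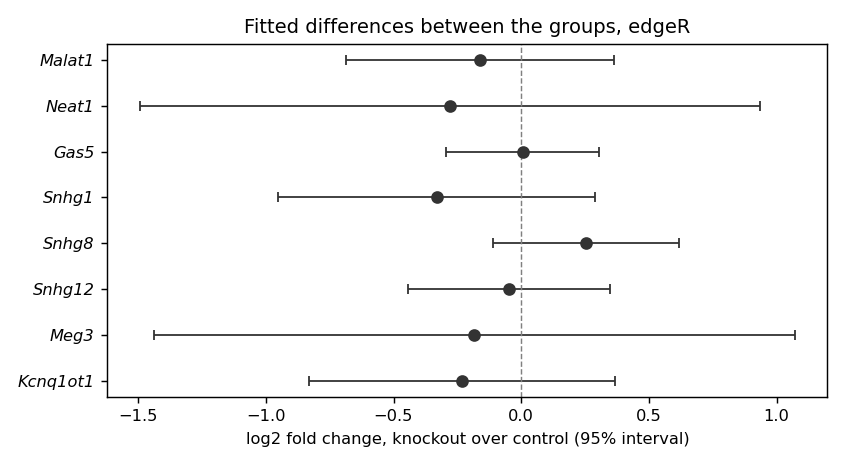
Log2 fold change of knockout over control with its 95% interval for each of the 8 RNAs, from edgeR. All intervals include 0. That of Gas5 runs from -0.29 to 0.31 and that of Neat1 from -1.49 to 0.94.

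Malat1, the speckle RNA (ENSMUSG00000092341, chromosome 19, 5795690 to 5802672 on GRCm38, 1 exon), had 441, 348 and 573 CPM in knockout livers, against 511 and 504 CPM in control livers. The control values were close together and lay inside the knockout range. The means were 454 ± 113 CPM in knockout (SD, n = 3) and 507 ± 4.82 CPM in control livers (SD, n = 2). Knockout over control gave a log2 fold change of -0.16 (SE 0.22), with a 95% interval of the ratio from 0.622 to 1.29. It was -0.36 without knockout replicate 3 and -0.0016 without knockout replicate 2, the library with the lowest Malat1.

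Neat1, the paraspeckle RNA (ENSMUSG00000092274, chromosome 19, 5824708 to 5845478, 1 exon), lies 22.0 kb from Malat1 on the same strand and varied far more. It had 253, 547 and 183 CPM in knockout livers, against 540 and 255 CPM in control livers. Knockout replicate 2 and control replicate 1 were high, and the others were low in both groups. The highest knockout library had 2.99 times the lowest, and control replicate 1 had 2.12 times control replicate 3. The means were 328 ± 193 CPM in knockout (SD, n = 3) and 397 ± 201 CPM in control livers (SD, n = 2). The fitted log2 fold change was -0.28 (SE 0.51), and the 95% interval of the ratio ran from 0.355 to 1.91. The sign rested on single libraries: without control replicate 1 Neat1 stood at 0.36, without knockout replicate 2 at -0.87 and without knockout replicate 3 at 0.01. Control replicate 1 was also the library with the high Rpph1 count, and knockout replicate 2, with a like Neat1 level, had 5 Rpph1 counts. Whether the Rpph1 counts bear on the Neat1 values was not tested.

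The ratio of Malat1 to Neat1 differed between libraries of the same group. Per length of the whole rows it was 5.19, 1.89 and 9.32 in the knockout libraries and 2.82 and 5.88 in the control libraries. The part of the short Neat1 form in these ratios is not known. Knockout replicate 2 combined the lowest Malat1 with the highest Neat1, and knockout replicate 3 the highest Malat1 with the lowest Neat1. Among 557 genes within 2-fold of its mean CPM, Neat1 had a larger within-group SD of log2(CPM + 0.5) than 97.1%, with 0.79. For Malat1 the SD was 0.29, above that of 73.5% of 404 such genes.

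**Figure D3:**
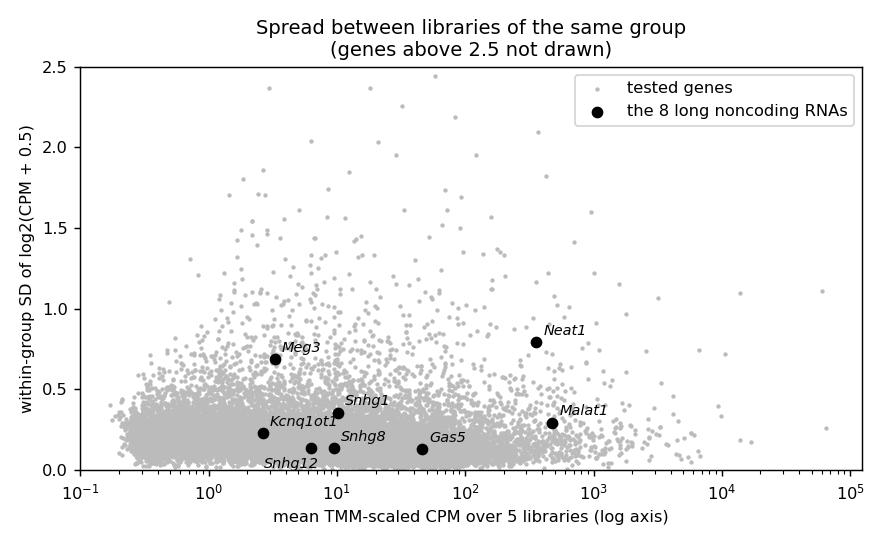
Within-group SD of log2(CPM + 0.5) over the 5 distinct libraries against mean CPM (log axis) for all tested genes in grey and the 8 RNAs in black. Neat1 (0.79) and Meg3 (0.69) lie high for their level, while Gas5, Snhg8 and Snhg12 (0.13 to 0.14) lie in the bulk.

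Gas5, a host of box C/D snoRNAs named for its rise in growth-arrested cells (ENSMUSG00000053332, chromosome 1, 161034422 to 161038539, plus strand), was the steadiest between the groups. It had 46.5, 44.0 and 48.9 CPM in knockout livers, against 50.7 and 41.8 CPM in control livers, so the knockout values lay between the controls. The means were 46.5 ± 2.44 CPM in knockout (SD, n = 3) and 46.3 ± 6.32 CPM in control livers (SD, n = 2). On the log2 scale the fold change was 0.01 (SE 0.13), and the 95% interval of the ratio ran from 0.815 to 1.24. Gas5 stood at 0.15 without control replicate 1 and at -0.12 without control replicate 3. The span of Zbtb37 on the opposite strand overlaps that of Gas5, and the strand setting of the counting is not given in the sources used here. Zbtb37 had 571 to 818 counts in knockout and 462 to 798 in control libraries.

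Snhg8, which hosts the H/ACA snoRNA Snora24 (ENSMUSG00000104960, chromosome 3, 123507552 to 123508404, minus strand), was the 1 member whose groups did not overlap. It had 346, 299 and 326 counts (11.3, 9.02 and 10.2 CPM) in knockout livers, against 284 and 239 counts (8.92 and 8.10 CPM) in control livers. Knockout replicate 2 exceeded control replicate 1 by little. Such a split with knockout higher was seen in 8.15% of all tested genes and in 1 of these 8. The opposite split, with knockout lower, was seen in 8.72% of all tested genes and in 0 of these 8. The means were 10.2 ± 1.12 CPM in knockout (SD, n = 3) and 8.51 ± 0.580 CPM in control livers (SD, n = 2). Knockout over control gave a log2 fold change of 0.26 (SE 0.15), with a 95% interval of the ratio from 0.927 to 1.54 and an unadjusted p of 0.140. Leaving out single libraries gave 0.17 to 0.33.

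Snhg1, the host of the U22 snoRNA among others (ENSMUSG00000108414, chromosome 19, 8723475 to 8726443, plus strand), had 8.24, 7.75 and 11.5 CPM in knockout livers, against 14.2 and 8.88 CPM in control livers. Control replicate 1 was highest, and control replicate 3 lay inside the knockout range. The fitted log2 fold change was -0.33 (SE 0.26), with a 95% interval of the ratio from 0.517 to 1.22. Without control replicate 1 it was 0.04, and without control replicate 3 it was -0.63. The row covers the whole gene with its introns, so reads of unspliced RNA count as well.

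Snhg12, host of Snora16a, Snora44, Snora61 and Snord99 (ENSMUSG00000086290, chromosome 4, 132308678 to 132311024, plus strand), had 6.45, 5.52 and 6.78 CPM in knockout livers, against 6.84 and 6.06 CPM in control livers. The groups overlapped, with a log2 fold change of -0.05 (SE 0.17) and a 95% interval of the ratio from 0.735 to 1.27. Without control replicate 1 Snhg12 stood at 0.04, and without knockout replicate 2 at 0.03.

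**Figure D4:**
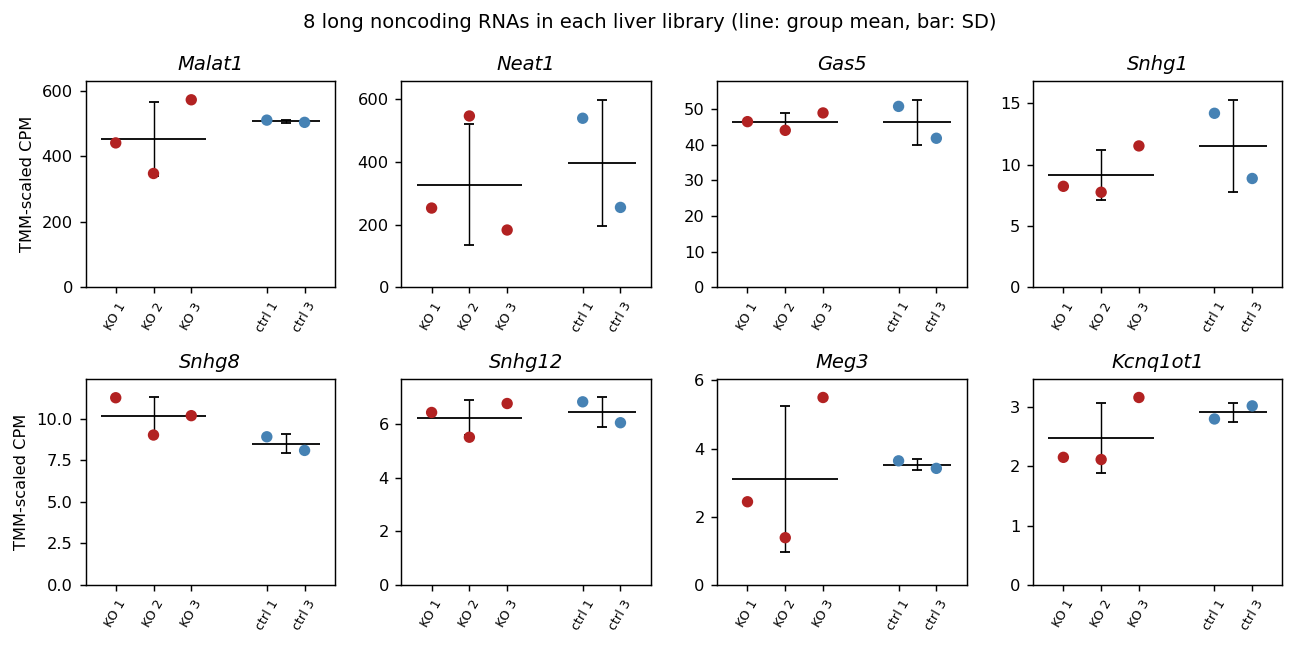
TMM-scaled CPM of each of the 8 RNAs in 3 knockout libraries (KO) and 2 control libraries (ctrl), with lines at the group means and bars of 1 SD. Only for Snhg8 do all knockout points lie on 1 side of the control points.

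Meg3, the maternally expressed RNA of the Dlk1-Dio3 domain (ENSMUSG00000021268, chromosome 12, 109541001 to 109571726, plus strand), was at a low level and varied among the knockout livers. It had 75, 46 and 176 counts (2.44, 1.39 and 5.50 CPM) in knockout livers, against 116 and 101 counts (3.64 and 3.42 CPM) in control livers. Knockout replicate 3 had 3.96 times the level of knockout replicate 2, and both controls lay between them. On the log2 scale the fold change was -0.18 (SE 0.52), and the 95% interval of the ratio from 0.369 to 2.10 leaves a doubling possible. It was -0.89 without knockout replicate 3 and 0.17 without knockout replicate 2. Among 3244 genes within 2-fold of its level, 96.2% had a smaller within-group SD.

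The neighbours of Meg3 in its domain were low as well. Rian, a snoRNA host transcribed in the same direction, had 1.04, 0.875 and 2.37 CPM in knockout livers, against 2.35 and 2.81 CPM in control livers. Its log2 fold change was -0.85 (SE 0.44), with an edgeR adjusted p of 1.00. Like Meg3 it was highest in knockout replicate 3 among the knockouts. Mirg had 1, 1 and 6 counts in the knockout libraries and 3 and 5 in the control libraries. The paternally expressed Dlk1 and Dio3 had at most 2 counts in any library, and Rtl1 was at 0 in all.

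Meg3 is known from endothelial and mesenchymal cells in several tissues, so marker lists of such cells are given beside it. The summed levels of 10 stellate cell markers were 285, 239 and 195 CPM in knockout livers, against 269 and 284 CPM in control livers, with 9 of 10 below 0 in log2 fold change. Those of 12 endothelial markers were 368, 298 and 273 CPM in knockout livers, against 349 and 414 CPM in control livers, with 10 of 12 below 0. None of these markers was at 0 in all libraries, and 0 of 22 passed the edgeR test. Unadjusted p-values under 0.05 were found for 3 stellate and 2 endothelial markers, all lower in knockout livers, as were 1.8% of all tested genes, among them Rgs5, a pericyte gene (-0.66, SE 0.15), and Pecam1, an endothelial adhesion molecule (-0.69, SE 0.23). Groups did not overlap, with knockout lower, for 4 of 10 stellate and 5 of 12 endothelial markers, against 8.72% of all tested genes. Both lists were lowest in knockout replicate 3, the library with the most Meg3. Their part in the Meg3 values was not tested. A lean below 0 was not limited to these lists. It was seen in 12 of 13 Kupffer cell and macrophage markers and in 5 of 5 tested erythroid markers. Of the tested hepatocyte, cholangiocyte and lymphocyte markers, 5 of 10, 3 of 5 and 5 of 7 lay below 0. Among all 16441 tested genes 7879 did.

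Kcnq1ot1, the paternally expressed antisense RNA (ENSMUSG00000101609, chromosome 7, 143212155 to 143296549, minus strand, 84.4 kb in 1 piece), had 66, 70 and 101 counts in the knockout libraries and 89 in each control library. These are 2.15, 2.11 and 3.16 CPM in knockout and 2.79 and 3.01 CPM in control livers, and the controls lay inside the knockout range. Knockout over control gave a log2 fold change of -0.23 (SE 0.25), with a 95% interval of the ratio from 0.563 to 1.29. Without knockout replicate 3, the highest library, Kcnq1ot1 stood at -0.45, and without knockout replicate 2 at -0.13. Kcnq1, the potassium channel gene it overlaps on the other strand, had 28, 35 and 34 counts in the knockout libraries and 35 and 51 in the control libraries. Reads of Kcnq1 introns and of Kcnq1ot1 cannot be told apart without strand. Of 9 tested genes listed for this imprinted domain, Kcnq1ot1 included, 4 were above and 5 below 0, and 0 passed the edgeR test or an unadjusted p of 0.05. The 3 with the smallest p were Kcnq1 (-0.48, SE 0.29), the sterol-binding protein gene Osbpl5 (0.71, SE 0.54) and the tetraspanin gene Cd81 (0.25, SE 0.20).

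Other snoRNA hosts were listed beside the 4 members. Of 18, 14 were in the table and 11 were tested, 5 above and 6 below 0 in log2 fold change, with a median of -0.15. By edgeR 0 of 11 passed, and 1, Snhg14, had an unadjusted p under 0.05, against 3.43% of all tested genes. Snhg14, a long imprinted transcript that hosts snoRNA clusters, had 3.94, 3.47 and 4.09 CPM in knockout livers, against 10.8 and 4.37 CPM in control livers. Control replicate 1 stood apart, and control replicate 3 was close to the knockouts. Snhg5 had 5.34, 5.58 and 5.66 CPM in knockout and 7.72 and 6.17 CPM in control libraries, and was the other host with knockout below control in every library. Such groups were seen in 2 of the 11 hosts and in 8.72% of all tested genes. Snhg11 was highest of these hosts by mean CPM, with 33.3, 27.8 and 26.4 in knockout and 15.2 and 29.9 in control libraries. Control replicate 1 was thus low for Snhg11 and high for Snhg14. Snhg17 (0.04, SE 0.12), Zfas1 (0.02, SE 0.27), Snhg20 (0.13, SE 0.23) and Snhg6 (-0.23, SE 0.21) had smaller values, as did Epb41l4aos (-0.15, SE 0.34) and Snhg15 (0.28, SE 0.33).

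Lists of proteins that work with these RNAs did not pass the edgeR test in any member. For the partners of Neat1, 11 of 20 paraspeckle protein genes were above 0, with a median of 0.03. Rbm3, a cold-induced RNA-binding protein, was the 1 of these 20 with an unadjusted p under 0.05 by edgeR, against 3.43% of all tested genes. Its values were 13.4, 14.2 and 17.5 CPM in knockout livers, against 10.6 and 11.4 CPM in control livers. For the speckles where Malat1 resides, 14 of 22 speckle and SR protein genes were above 0, with a median of 0.04. The SR protein gene Srsf5 had the smallest p (0.19, SE 0.12). Of 18 genes for nonsense-mediated decay, which degrades spliced Gas5, 9 were above 0 and 0 had an unadjusted p under 0.05. The core helicase gene Upf1 had 59.1, 53.2 and 71.4 CPM in knockout and 54.5 and 55.2 CPM in control libraries.

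For the snoRNA hosts, 9 of 16 snoRNP protein genes were above 0, with a median of 0.07. Nhp2, a core H/ACA protein, had 522, 512 and 518 counts in knockout livers, against 421 and 395 in control livers, an unadjusted p of 0.0414 and an adjusted p of 1.00 by edgeR. Nop56, a core box C/D protein, had 14.5, 13.6 and 22.7 CPM in knockout and 11.2 and 12.5 CPM in control libraries. The groups of both genes did not overlap, as was so in 3 of these 16 genes and in 8.15% of all tested genes with knockout higher. Of 28 translation genes with a TOP, 17 were above and 11 below 0, with a median of 0.02, and 0 had an unadjusted p under 0.05. Among 12 other tested long noncoding RNAs, 4 were above and 8 below 0, with a median of -0.07. Dleu2, the host of miR-15a and miR-16-1, had 9.18, 12.1 and 8.53 CPM in knockout and 15.4 and 14.7 CPM in control libraries (log2 fold change -0.60, SE 0.18, edgeR adjusted p 1.00).

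The genes whose pattern over the 5 libraries was most like each member were found by the root mean square difference of log2(CPM + 0.5), each gene centred on its mean, among 8151 other genes with a mean of at least 10 CPM. Genes were picked for this likeness, so a shared pattern follows from the choice, and the likeness to be met by chance was not estimated. The likeness is a description over 5 libraries. For Malat1 they were Eef2k, a kinase of the elongation factor eEF2 (0.05), and Ppp1r15a, the stress-induced GADD34 (0.06). For Neat1 they were Arrdc3, an arrestin-domain protein (0.19), and Cldn1, a tight junction protein (0.20). Arrdc3 had 248, 387 and 145 CPM in knockout livers, against 514 and 253 CPM in control livers, high and low in the same libraries as Neat1. For Gas5 they were Eef1d, a subunit of elongation factor 1 (0.01), and Ric8a, a chaperone of G protein alpha subunits (0.01). The root mean square spread of the member itself was 0.25 for Malat1, 0.64 for Neat1 and 0.10 for Gas5. The differences can therefore not be compared between members. Eef1d is also in the list of translation genes with a TOP. It had 53.0, 50.5 and 56.9 CPM in knockout livers, against 58.8 and 48.2 CPM in control livers.

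For Snhg1 the nearest were Mpv17l (0.06) and Ttc36 (0.09), for Snhg8 Mrpl48-ps (0.03) and Gm6741 (0.04), and for Snhg12 Tcea3 and Slc20a1 (0.02 each). For Meg3 they were Gpcpd1, a glycerophosphocholine phosphodiesterase (0.14), and Hsd17b6, a hydroxysteroid dehydrogenase (0.17). Gpcpd1 had 222, 127 and 388 CPM in knockout livers, against 348 and 259 CPM in control livers. Knockout replicates 2 and 3 were again the lowest and highest, a pattern for which Gpcpd1 was picked. For Kcnq1ot1 they were the transporter gene Slc22a28 (0.04) and D230025D16Rik (0.05).

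**Figure D5:**
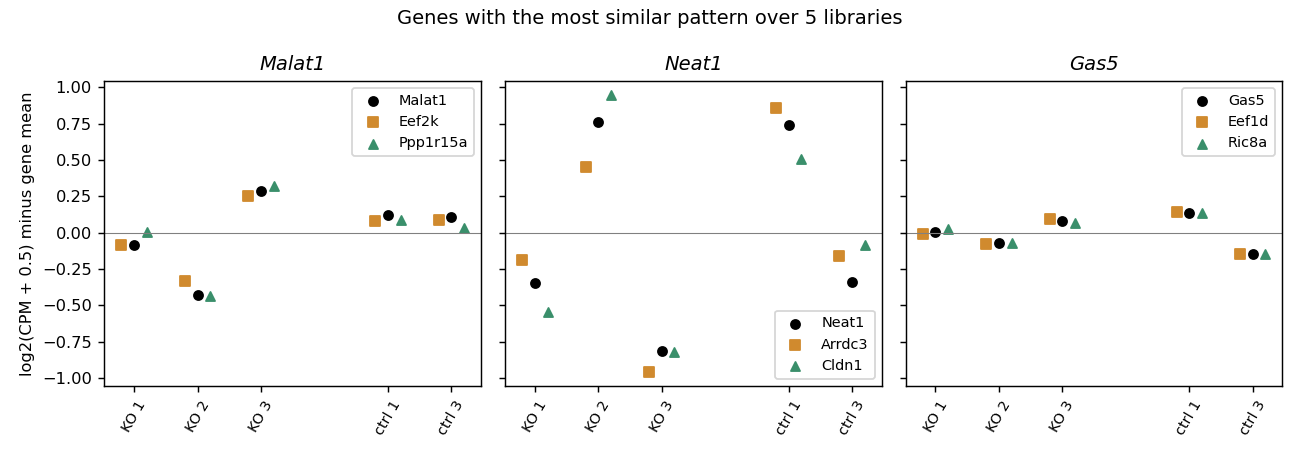
Log2(CPM + 0.5) minus each gene's mean in 3 knockout (KO) and 2 control (ctrl) libraries for Malat1, Neat1 and Gas5 (black) and the 2 genes most like each (orange squares and green triangles). Neat1, Arrdc3 and Cldn1 are high in knockout replicate 2 and control replicate 1 and lowest in knockout replicate 3, while the Gas5 panel stays close to 0.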

How the data were processed

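The authors deposited 1 table of raw read counts per gene with exon coordinates and lengths. FastQC, featureCounts 1.4.6-p4, Subread 1.4.6-p4 and Trimmomatic 0.33 are listed, with mm10 and GRCm38 as builds, per the submitters' processing notes. The sources used here do not give the strand setting, how reads with several matches were treated, or the annotation release. Symbols came from GENCODE vM21, which matched 46488 of 46983 rows. Genes were kept by edgeR's filterByExpr, scaled by TMM and tested two-sided by quasi-likelihood in edgeR, 3 knockout against 2 distinct control libraries. P-values were Benjamini-Hochberg adjusted over all 16441 genes, with a threshold of 0.05. SEs came from the F statistic. A count of 3, the limit of detection used, is 0.0891 to 0.101 CPM, counting error only. The labels call the libraries biological replicates. The software was DESeq2 1.42.0, limma 3.58.1 and edgeR 4.0.16 under R 4.3.3, and Python 3.11.15. Members and lists were chosen with earlier results of these data known. Named were the 8 members, Mtdh, the 3 tested genes of smallest p in each list (not all are printed), snoRNA hosts of at least 2 CPM, the 2 genes most like each member, and rows overlapping members. Untested genes such as Ckm, Rpph1, Rmrp and those of the Meg3 domain were added after their values were seen. Alternatives were other scalings, no filter, DESeq2, limma-voom, all 6 columns, a replicate block and leaving out each library.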

Additional observations from a re-analysis of the deposited data

How the results depend on the processing

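None of the 8 RNAs passed the threshold under any of the 12 alternatives of its fold change, with adjusted p-values from 0.559 to 1.00. The lowest of these, for Snhg8, came from all 6 columns as deposited, where the repeated control library counts as 2. Malat1, Snhg8 and Kcnq1ot1 kept their direction in all 12 alternatives, with Kcnq1ot1 at -0.45 to -0.13 when single libraries were left out. Leaving out 1 library at a time gave -0.87 to 0.36 for Neat1, -0.12 to 0.15 for Gas5, -0.63 to 0.043 for Snhg1, -0.13 to 0.039 for Snhg12 and -0.89 to 0.17 for Meg3, and the cause was not tested. With all 6 columns as deposited Gas5 was at -0.038. Replicate numbers are shared by the groups, but they pair only 2 distinct libraries of each. Deviations from the group means correlated at 0.03 for number 1 and 0.14 for number 3, but with 2 controls these are mirror images and say little. Number 3 joined 2 libraries that were close over all genes (chi-square per degree of freedom 49.4), number 1 did not (84.5), and the labels give the numbers no shared source. With the replicate block Neat1 moved to -0.79 (SE 0.22, edgeR unadjusted p 0.0159, adjusted p 0.975), Malat1 to -0.013, Gas5 to 0.049, Snhg1 to -0.20, Snhg8 to 0.33 and Kcnq1ot1 to -0.15. Snhg12 was at 0.037 and Meg3 at 0.071, Mtdh was at -4.28 with an edgeR adjusted p of 0.0517, and 0 genes were called. Genes called lower, 1 in all, numbered 3 without a low-count filter, 13 by DESeq2 (with 6 higher) and 1 to 6 when single libraries were left out, where a lone control is assumed to vary like the knockouts. The mean knockout share of the 8 RNAs was 0.0863% of the library, and 0.105% without the Alb, Apoa1, Mup and Serpina1 genes. Meg3 and Kcnq1ot1 rest on 46 to 176 and 66 to 101 counts per library, and Meg3 also varied more between livers of a group than 96.2% of genes of like level.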

Other observations

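By the mean per length over the 5 libraries, 3 other long noncoding RNA rows lay above Malat1, all named after their values were seen. Gm10076 (chromosome 14) had 92.1, 83.9 and 106 CPM in knockout livers, against 111 and 82.9 CPM in control livers, over 384 bases of exon. AW112010 (chromosome 19) had 67.7, 62.7 and 56.4 CPM in knockout livers, against 50.7 and 70.7 CPM in control livers. Per kb of exon AW112010 was below Malat1 in knockout replicate 3 (73.3 against 82.1 CPM per kb) and in control replicate 1 (65.9 against 73.2). Gm15564 (chromosome 16) had 65.5, 134 and 99.7 CPM in knockout livers, against 630 and 73.1 CPM in control replicates 1 and 3. Control replicate 1, which alone was high for Gm15564, was also the library with 97 counts of Rpph1 and 18 of Rmrp, against 2 to 5 of Rmrp in the knockout libraries and 0 in control replicate 3.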
